A study of Homo sapiens with 24 samples.

Results

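The replication-dependent histone genes encode the core and linker histones that package new DNA, and 65 of the 63299 genes in the deposited count table belong to them. The members were taken by name: each is a protein-coding gene whose Ensembl identifier maps to a current symbol of the H1 series (H1-1 to H1-6) or of the H2AC, H2BC, H3C or H4C series. They comprised 6 H1, 15 H2A, 18 H2B, 11 H3 and 15 H4 genes. The identifiers of 4 further symbols that meet the rule, H2AC18, H2AC19, H3C2 and H3C3, were not matched to the table, and these genes were not analysed here. By position, 53 members lay on chromosome 6, 9 in one cluster of chromosome 1 and 2 in another, and 1, H4C16, on chromosome 12.

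RNA was sequenced from 24 libraries in 8 groups of 3. The cells were A2780, a platinum-sensitive ovarian cancer line, and A2780cis, its isogenic platinum-resistant counterpart, and A2780cis medium had received 1 µM cisplatin at intervals to hold the resistance. Each line was kept untreated in standard medium or was treated with 1 µM 5-FdU-ECyd, and was harvested after 6 h or 12 h. 5-FdU-ECyd is a duplex-prodrug that joins 2 nucleoside analogues, 5-FdU, which blocks DNA synthesis, and ECyd, which blocks RNA synthesis. The study calls the replicates of a group biological, without saying how the cultures were kept apart, and the p-values below measure the spread between these libraries.

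Histone octamers are built from H2A, H2B, H3 and H4, and H1 binds the linker DNA between them. The genes studied here are used mainly in S phase, lie in clusters, have no or few introns, and give mRNAs that usually carry no poly(A) tail. These mRNAs end instead just after a conserved stem-loop, which is bound by the stem-loop binding protein SLBP and is cut with the help of the U7 small nuclear RNA. Some of the genes can also be read past the loop to a downstream polyadenylation signal.

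The stem-loop is the feature that sets these genes apart, and it was searched for in the GRCh38 sequence within 100 bases after the stop codon, as a perfect stem of 6 base pairs that starts with GG and closes a loop of 4 bases. It was found in 63 of 65 members (96.9%), all but H2AC11 and H2AC15, and in 106 of 19876 other protein-coding genes (0.533%). The element is shown for the members on which the results turn, on the coding strand and with 4 bases before and 8 after it. The capitals mark the 16 bases of stem and loop.
H4C9: aaaaGGCCCTTTTTAGGGCCcctaagct
H4C14: caaaGGCCCTTTTTAGGGCCgaccactt
H3C6: caaaGGCTCTTCTCAGAGCCaaccactt
H2BC12: caaaGGCTCTTTTAAGAGCCacttaaat
H2BC26: caaaGGCTCTTTTCAGAGCCacccacac
H2AC25: taaaGGCTCTTTTCAGAGCCacctacta
H1-2: aaaaGGCTCTTTTCAGAGCCaccactga
The most frequent element was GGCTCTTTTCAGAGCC, in 36 members, followed by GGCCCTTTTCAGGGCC in 10 and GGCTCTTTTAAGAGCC in 9. All 15 H4 members had a stem that begins GGCCC, and the stems of the other classes began with GGCTC. The elements of H4C9 (chr6:27139654-27139669, plus strand) and H4C14 (chr1:149833032-149833047, plus strand) are the same 16 bases, although these genes behaved differently below. H4C14 and H4C15, which face each other on chromosome 1, had no difference in the 28 bases of the loop with its flanks.

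The gene models differed in where they end. In the GENCODE 44 annotation 46 members end within 100 bases of the loop, and 17 have exons that reach further, either directly or after splicing. The annotation used for counting was older than this, so the exons counted may differ from these models. H4C9 (chr6:27139282-27139678, plus strand), H2BC12 (chr6:27146361-27146855, minus strand) and H1-2 (chr6:26055740-26056470, minus strand) are of the first kind. H4C14 (chr1:149832657-149839767, plus strand), H3C6 (chr6:26224199-26227473, plus strand), H2BC26 (chr1:228458103-228463104, plus strand) and H2AC25 (chr1:228434777-228457873, minus strand) are of the second.

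Promoter windows from RefSeq (GRCh38.p14) were present for 60 of 65 members, with 64 windows since some genes have several starts. Motifs were searched on both strands in the 250 bases before the start. The octamer ATTTGCAT was in 27 of 64 member windows (42.2%) and in 1.56% of the 35052 other windows. It was found in 75% of H2B and 78.6% of H2A windows, in 1 of 11 H3 windows (9.09%) and in no H1 or H4 window. The H3 window, given for H3C4, is the same as that of H2AC7. Windows of H2A and H2B genes that start close together on opposite strands overlap, so 1 octamer can count for both genes. CCAAT was in 84.4% of member windows against 31.9% of the others, and TATAAA in 65.6% against 10.6%. The last 150 bases before the start are shown for 4 members that changed in different directions, with these motifs (either strand) in capitals. They lie at chr6:27139132-27139281 for H4C9, chr1:149832507-149832656 for H4C14 and chr1:228457953-228458102 for H2BC26, all on the plus strand, and at chr6:27146859-27147008 for H2BC12, on the minus strand.
H4C9: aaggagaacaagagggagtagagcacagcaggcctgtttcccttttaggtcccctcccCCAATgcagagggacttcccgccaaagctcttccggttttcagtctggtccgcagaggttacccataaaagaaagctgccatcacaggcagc
H4C14: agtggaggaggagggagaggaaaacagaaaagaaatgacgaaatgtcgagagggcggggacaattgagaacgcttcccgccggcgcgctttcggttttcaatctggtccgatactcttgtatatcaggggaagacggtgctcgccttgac
H2BC12: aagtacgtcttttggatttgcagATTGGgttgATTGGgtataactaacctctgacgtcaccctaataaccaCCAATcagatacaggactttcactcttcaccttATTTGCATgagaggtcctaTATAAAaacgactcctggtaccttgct
H2BC26: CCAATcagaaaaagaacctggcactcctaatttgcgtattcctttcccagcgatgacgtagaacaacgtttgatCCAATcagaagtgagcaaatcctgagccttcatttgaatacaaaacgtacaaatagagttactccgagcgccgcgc
The H2BC12 window held all 3 motifs, H4C9 held CCAAT, and the H4C14 window held none of them in these 150 bases. The 150 bases of H4C15 are the same as those of H4C14, with 0 differing bases.

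The libraries held between 11077368 and 21901406 counts each. The labels name a total RNA kit, yet several RNAs that have no poly(A) tail were scarce: RN7SK, the abundant small nuclear RNA 7SK, was at 0.231 to 1.83 CPM (read counts scaled to the TMM library size) in 16 of the 24 libraries. It was far higher in the other 8, namely at 33.7 and 69 CPM in A2780cis treated for 6 h (replicates 1 and 2), at 18.5 and 12.8 in untreated A2780 at 12 h (replicates 2 and 3), at 12.1 in A2780 treated for 12 h (replicate 1), and at 23, 26.6 and 24.7 in all 3 libraries of A2780cis treated for 12 h. RMRP, RPPH1, SNORD3A and RNU4-2, which also lack a tail, were higher in the same 8 libraries. Of the markers of the ovarian epithelium, PAX8 and WT1 were at or near 0 in all groups, EPCAM reached at most 1.96 CPM, and KRT18 was at 0.718 to 3.27 CPM in A2780 and 20.6 to 28.4 in A2780cis. The levels of KRT8, KRT7, KRT19 and MUC16, also on this list of 8 markers, are not given here. Of the 8, 3 passed the filter on low counts. In untreated A2780cis against untreated A2780 at 12 h, 2 of these were higher and 1 lower, beside 5133 and 5565 of all 20240 genes tested. None of the 6 markers of other cell types passed the filter on low counts.

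Histone mRNAs made up a very small share of the counts, and a few genes carried most of it. All 65 members summed to 92.3 to 127 CPM in the A2780 libraries. Per kilobase of exon, the highest mean levels over the 24 libraries were those of H4C9 (39.2 CPM per kb), H2BC12 (26.3) and the linker histone H1-2 (13.5), and the next member, H2BC9, stood at 4.49. H2AC11 (2.5), H2AC6 (1.96) and H2AC20 (1.78) led the H2A genes and H3C10 (1.26), H3C8 (1.11) and H3C6 (0.696) the H3 genes, while H2BC8 (1.86), H4C14 (2.12) and H4C15 (2.04) followed the leaders of their classes. These ranks are over all libraries and differ within a line: in untreated A2780cis at 12 h H2AC20 (2.31 CPM per kb) stood above H2AC11 (0.925) and H2AC6 (0.561), and in untreated A2780 at 12 h H2AC11 (3.67) and H2AC25 (3.13) stood highest of the H2A genes. The lengths are from GENCODE 44. H4C14 and H4C15 had almost the same level in every library and share reads that were split between them in fractions, so they cannot be treated as separate observations. Each still counts as a member in the numbers of called members below.

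Of the 65 members, 27 had enough counts to be tested: H1-2, 5 H2A, 11 H2B, 3 H3 and 7 H4 genes. A gene could pass the filter through the groups in which it was high, so counts over the 27 describe the tested members and not all 65. The other 38 had at most 17 counts in any library, which was the highest count of H3C4, and H2AC1, H2BC1, H4C6 and H4C13 had none. The highest counts in a library were 13 for H1-3, 11 for H1-4, 10 for H1-5 and 1 for H1-1 and H1-6. Among the H2A genes they were 11.5 for H2AC13, 10.5 for H2AC14, 9 for H2AC17, 7 for H2AC7 and H2AC12, 5 for H2AC21, 4 for H2AC15 and H2AC16 and 3 for H2AC4. The H2B genes reached 10 for H2BC13, 6 for H2BC7, H2BC14 and H2BC17, 2 for H2BC10 and 1 for H2BC3. H3C14 and H3C15, near-identical copies, reached 13.3 each, H3C12 reached 10, H3C7 and H3C13 reached 5, H3C11 reached 2 and H3C1 reached 1. Among the H4 genes the highest counts were 12.5 for H4C11, 10 for H4C3, 9 for H4C4, 8 for H4C2 and 1 for H4C1 and H4C7. All but 1 of these 38 genes, H2AC1, end at the loop or, in H2AC15, have no loop that met the search.

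Libraries of untreated A2780cis held much lower histone levels than those of untreated A2780. Over all classes, untreated A2780 stood at 103, 122 and 125 CPM at 6 h and at 123, 127 and 126 CPM at 12 h. Untreated A2780cis stood at 30.5, 25.4 and 35.4 CPM at 6 h and at 32, 30.7 and 30.5 CPM at 12 h. The groups of the lines did not overlap at either time. These mRNAs usually carry no poly(A) tail, and RNAs without a tail were scarce in most libraries. The levels may therefore not measure all histone mRNA of the cells. At 6 h RN7SK was at 0.969, 0.804 and 0.409 CPM in untreated A2780 and at 0.231, 0.251 and 0.654 CPM in untreated A2780cis. At 12 h RN7SK was at 1.16, 18.5 and 12.8 CPM in untreated A2780 and at 1.15, 0.606 and 0.637 CPM in untreated A2780cis, and its part was not tested. At 6 h 18 of the 27 tested members were lower in A2780cis, against 22.9% of all genes tested, and at 12 h 20 were lower, against 27.5%. No member was higher (edgeR quasi-likelihood test; 0 also at an unadjusted p below 0.05 and 0 by DESeq2). The median log2 FC of the members was -1.47 at 6 h and -1.65 at 12 h, while that of all genes tested was 0.01 and -0.01. All 5 class sums were lower in A2780cis at both times, from -1.27 ± 0.15 (SE) for H2A at 12 h to -2.38 ± 0.13 for H4 at 12 h.

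**Figure D1:**
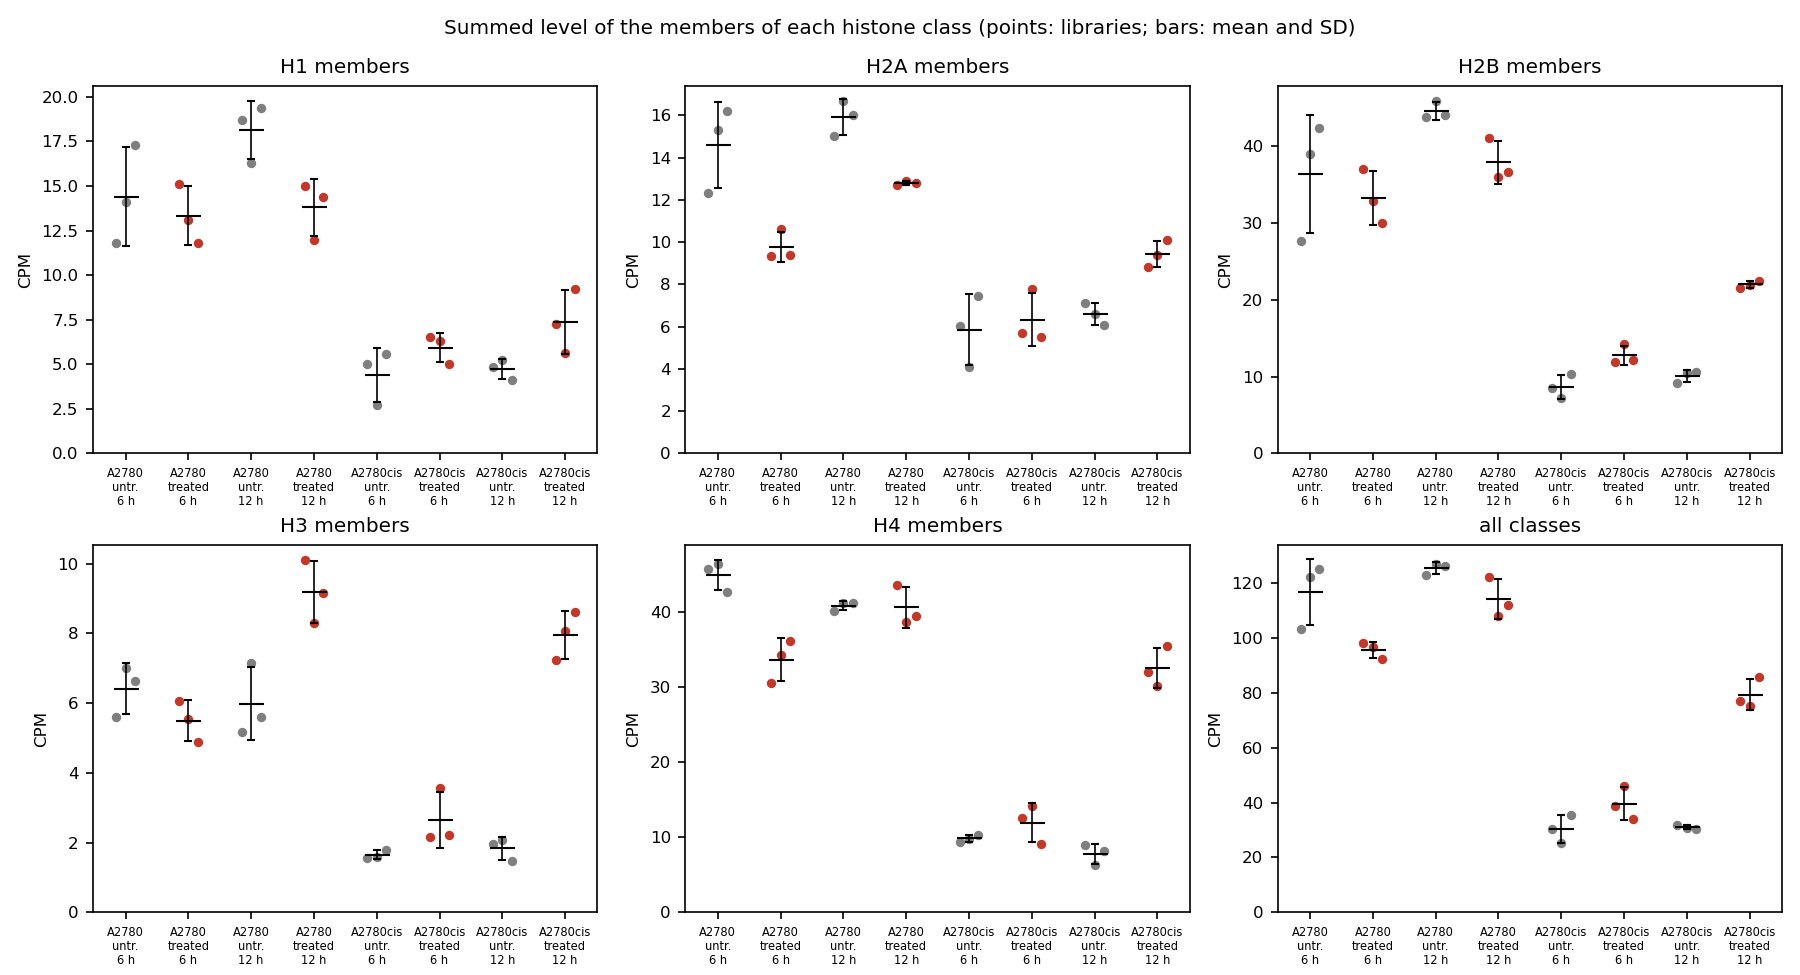
Summed CPM (TMM-scaled, linear axes from 0) of the members of each histone class and of all classes in the 8 groups, with 1 point a library and the mean and SD of 3 libraries as bars. A2780cis lies below A2780 in the untreated groups of every class, and the A2780cis libraries treated for 12 h, at 75.1 to 85.8 CPM over all classes, lie above those untreated, at 30.5 to 32.

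H2BC11, H2BC12 and H4C9 had the largest differences between the lines at 6 h. H2BC11 differed by -3.02 ± 0.27 at 6 h and by -2.08 ± 0.22 at 12 h. H4C9, an H4 gene and the most abundant member, was at 35.8, 37.2 and 34.3 CPM in untreated A2780 at 6 h and at 5.27, 5.82 and 6.13 CPM in untreated A2780cis. Its log2 FC was -2.64 ± 0.16 at 6 h and -2.93 ± 0.16 at 12 h. H2BC12, an H2B gene, was at 14.4, 22.6 and 27.8 CPM against 3.07, 2.36 and 3.87 CPM at 6 h, a wide spread in A2780 that still did not overlap with A2780cis. Its log2 FC was -2.78 ± 0.23 at 6 h and -2.67 ± 0.20 at 12 h. H1-2 differed by -1.68 ± 0.21 and -1.93 ± 0.19, H3C6 by -2.47 ± 0.38 and -2.93 ± 0.36, and H4C14 by -1.31 ± 0.27 and -1.97 ± 0.24. H2AC20, H2AC8, H4C12, H4C16, H4C5 and H2BC18 passed the threshold at neither time. With bulk RNA, fewer cells in S phase, less histone mRNA in each cell and a difference in what entered the libraries cannot be told apart. Of 29 genes of S phase, 6 were higher and 4 lower in untreated A2780cis at 6 h, with a median log2 FC of 0.02. At 12 h 7 were higher and 4 lower, with a median of -0.05. Of all 20240 genes tested, 5057 were higher and 4638 lower at 6 h, and 5133 and 5565 at 12 h. The part of S phase in the line difference was not tested.

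Time in culture alone moved few members. Between 6 h and 12 h without drug 1 of 27 members changed in A2780, against 26.9% of all genes tested, and 2 changed in A2780cis, against 39.9%. In A2780 the call was H2BC18 (1.67 ± 0.57), a gene of few counts whose exons overlap FCGR1A on the other strand. In A2780cis H2AC25 was higher at 12 h (0.59 ± 0.20) and H4C9 lower (fell by 0.55 ± 0.18 on the log2 scale). The H2AC25 call was lost without replicate 2 of the 12 h group (0.53) and without replicate 1 (0.58) or 2 (0.52) of the 6 h group, and the H4C9 call without replicate 2 (-0.40) or 3 (-0.55) of the 12 h group and replicate 3 of the 6 h group (-0.50). None of the class sums passed the threshold in either line (edgeR quasi-likelihood test; at an unadjusted p below 0.05 there was 1 in each line, and DESeq2 called none).

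After 6 h of 5-FdU-ECyd, the share of members that fell in A2780 was near that of all genes, and none rose. The 4 of 27 that fell (14.8%), against 13.4% of all genes tested, were H2BC11, H2AC6, H4C9 and H2AC25. No member rose, against 16% (edgeR quasi-likelihood test; 0 at an unadjusted p below 0.05 and 0 by DESeq2). H2BC11 was at 2.91, 4.14 and 3.5 CPM untreated and at 1.92, 1.79 and 1.63 treated, groups that do not overlap, with a log2 FC of -0.99 ± 0.21 (adjusted p = 7.22e-04). H2AC6 fell by 0.77 ± 0.20 on the log2 scale (adjusted p = 0.00574), H4C9 by 0.51 ± 0.14 (adjusted p = 0.00714) and H2AC25 by 0.51 ± 0.17 (adjusted p = 0.0263). Without replicate 1 of the treated group 2 members were called in place of 4, the calls of H2AC6 (-0.59) and H2AC25 (-0.55) being lost. The H2AC25 call was also lost without treated replicate 3 (-0.41) and without untreated replicates 2 (-0.48) or 3 (-0.41). The H2A sum fell by 0.58 ± 0.15 and the H4 sum by 0.41 ± 0.12 on the log2 scale, and the H1, H2B and H3 sums passed no threshold. For H4 this call was lost without replicate 1 of the treated group (-0.37, adjusted p = 0.0601).

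After 12 h in A2780 the members moved in both directions. Of the 27, 12 rose, against 28.6% of all genes tested, and 4 fell, against 26.1%. The copies H4C14 and H4C15, which share reads, are both among the 12. The median log2 FC of the members was 0.48, beside 0.02 for all genes tested. With library sizes used without TMM scaling, the median of all genes was 0.24, 70.7% of all called genes were higher in place of 52.3%, and 13 members rose and 3 fell.

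The largest increases at 12 h in A2780 were those of H4C14, H2BC21 and H4C15. H4C14 was at 2.81, 3.3 and 3.03 CPM without drug and at 11, 9.87 and 9.52 CPM with it, a 3.33-fold difference between groups far apart (log2 FC 1.73 ± 0.18, adjusted p = 1.15e-08). H2BC21, an H2B gene near H4C14 on chromosome 1, rose from 0.528, 1.51 and 1.9 to 5.46, 4.54 and 3.47 CPM (1.71 ± 0.31), and the copy H4C15 rose by 1.64 ± 0.18. The treated libraries were above every untreated library for each of the 3. H2BC26 (1.46 ± 0.17), H4C5 (1.36 ± 0.44), H4C16 (1.29 ± 0.35), H2BC8 (1.23 ± 0.35), H3C10 (1.11 ± 0.20), H2BC5 (1.02 ± 0.19), H3C6 (0.88 ± 0.23), H2BC9 (0.77 ± 0.21) and H4C8 (0.66 ± 0.22) rose too.

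The leading H2B and H4 genes, H2BC12 and H4C9, fell at the same time. H2BC12 was at 30.7, 30.7 and 27.5 CPM without drug and at 12.4, 11.5 and 12.8 CPM with it (log2 FC -1.27 ± 0.18, adjusted p = 1.31e-06). H4C9 was at 30.3, 29 and 30.5 CPM and fell to 14.9, 12.9 and 14.3 CPM (-1.10 ± 0.14, adjusted p = 3.14e-07). H2AC25 fell from 5.61, 5.79 and 5.96 to 2.66, 3.04 and 3.01 CPM (-0.99 ± 0.16, adjusted p = 6.64e-06). In none of the 3 did the groups overlap. H2AC8 fell as well (-1.03 ± 0.40), at less than 1 CPM in every library. Since reads of H2BC12 were split in fractions in most libraries, its level includes reads shared with other genes.

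**Figure D2:**
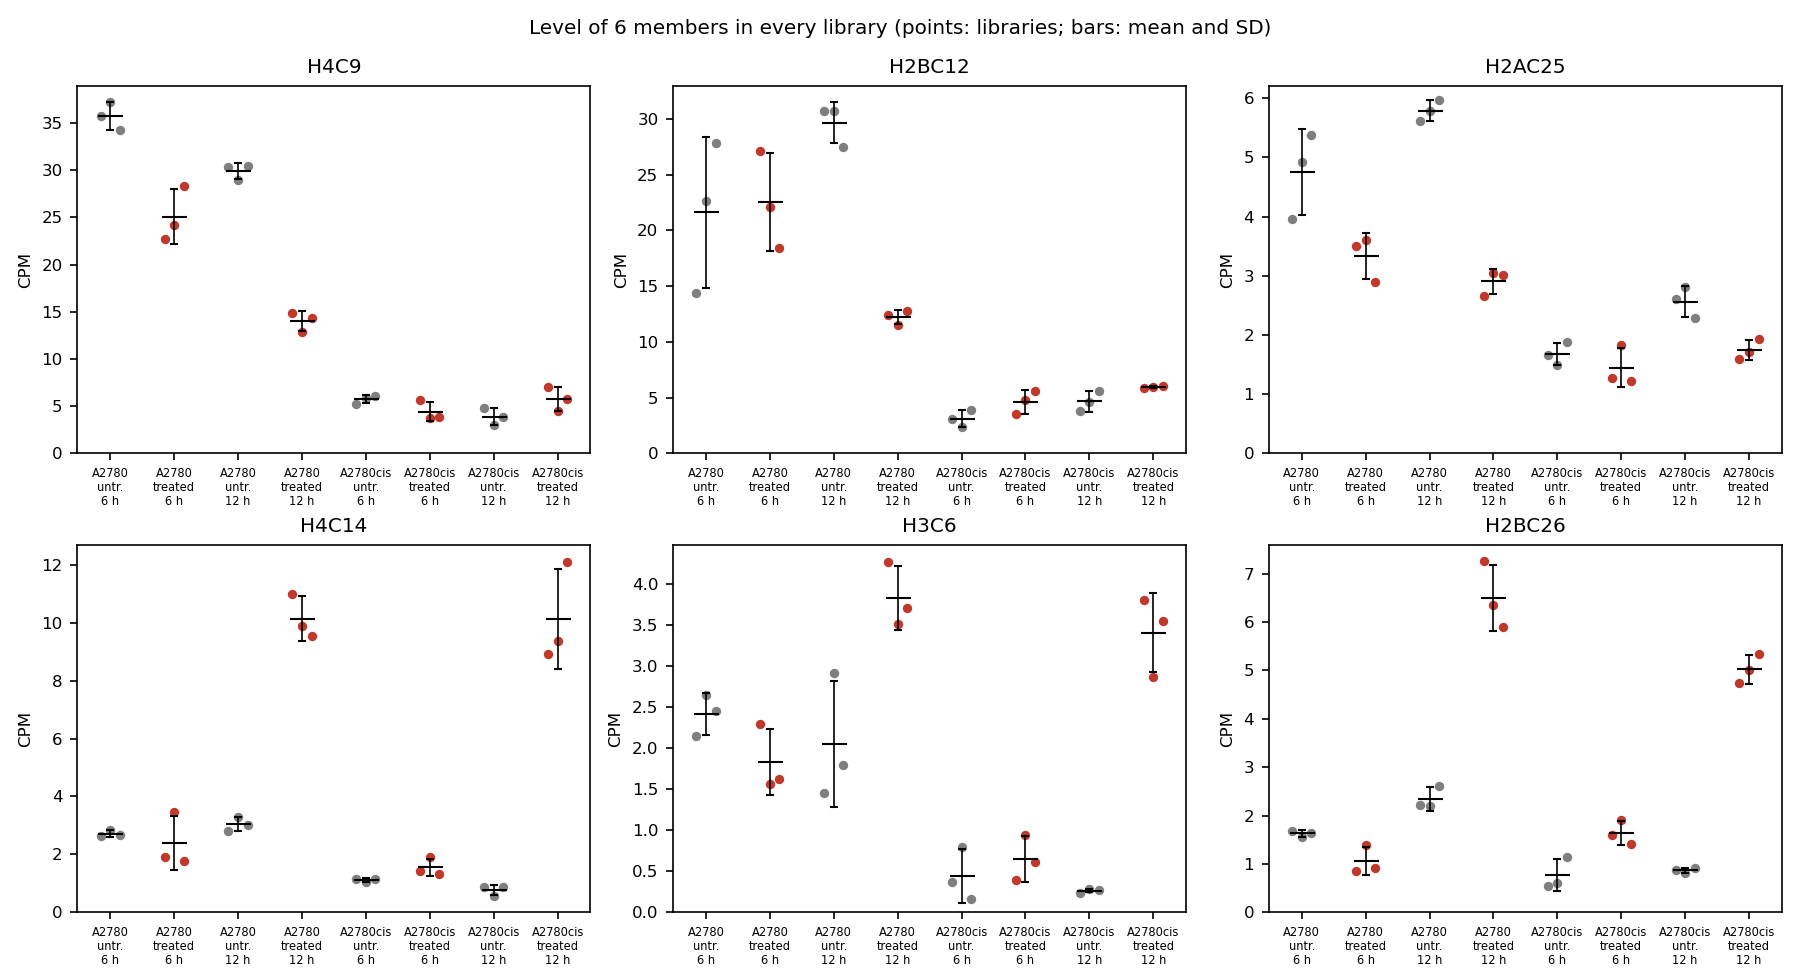
CPM (linear axes from 0) of H4C9, H2BC12, H2AC25, H4C14, H3C6 and H2BC26 in the 8 groups, with 1 point a library, the mean and SD as bars, grey for untreated and red for treated. In A2780 the upper 3 genes fall at 12 h of treatment and the lower 3 rise, and in both lines H4C14 stands near 10 CPM when treated for 12 h, from 8.92 to 12.1.

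Rises and falls met within the H2B and H4 classes, and in A2780 at 12 h 1 of the 5 class sums passed the threshold. The H3 sum rose by 0.61 ± 0.16, from 5.17, 7.16 and 5.61 to 10.1, 8.31 and 9.15 CPM. The other 4 sums passed no threshold, with log2 FCs of -0.39 ± 0.17 for H1, -0.32 ± 0.14 for H2A, -0.24 ± 0.13 for H2B and -0.01 ± 0.12 for H4. The H4 value changed sign with unscaled library sizes (0.21), and with the sum taken over only those members whose counts were whole (within 1e-06) in at least 90% of the libraries, and so mostly without split reads, H4 was lower (-0.75) and H2B higher (0.89). Leaving out the 3 libraries of this comparison that had over 10 CPM of RN7SK left a single untreated library. The calls of that fit are therefore not compared with those above. No named member called above changed sign in it.

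In A2780cis the response at 6 h was small. Of the 27 members 2 rose, H2BC26 and H2BC18, against 14.4% of all genes tested. None fell, against 16.3% (edgeR quasi-likelihood test; 1 at an unadjusted p below 0.05, and 0 by DESeq2). H2BC26 was at 0.555, 0.602 and 1.15 CPM untreated and at 1.59, 1.9 and 1.41 CPM treated, without overlap (log2 FC 1.03 ± 0.26, adjusted p = 0.00622). The H2B sum (0.55 ± 0.15) and the H3 sum (0.65 ± 0.23) rose. Treated replicates 1 and 2 were the libraries with the most RN7SK of all, and without them neither the 2 members nor the 2 sums passed the threshold, with H2BC26 at 0.84 (adjusted p = 0.112; also lost without untreated replicate 1, at 0.84 and adjusted p = 0.0578), the H2B sum at 0.49 and the H3 sum at 0.41. A single treated library was then left, which was assumed to vary like the other groups. The H2B call was also lost without untreated replicate 2 (0.43), and the H3 call without treated replicate 2 (0.43) or untreated replicates 1 (0.61) or 2 (0.63).

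After 12 h in A2780cis most members rose. They numbered 19 of 27, against 31% of all genes tested, and 1 fell, H2AC25, against 28.9%. The copies H4C14 and H4C15 are both among the 19. The median log2 FC of the members was 1.33, beside 0.04 for all genes tested. The summed level of all classes was 76.9, 75.1 and 85.8 CPM with drug and 32, 30.7 and 30.5 CPM without. All 5 class sums rose, H3 by 2.11 ± 0.18, H4 by 2.06 ± 0.13, H2B by 1.12 ± 0.14, H1 by 0.64 ± 0.20 and H2A by 0.52 ± 0.15. The H1 call was lost without replicate 3 of the treated group (0.41, adjusted p = 0.104) and without replicate 3 of the untreated group (0.52, adjusted p = 0.0514).

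H4C14, H3C6 and H4C15 rose the most. H4C14 was at 0.891, 0.561 and 0.864 CPM without drug and at 8.92, 9.37 and 12.1 CPM with it, a 13-fold difference (log2 FC 3.70 ± 0.22, adjusted p = 2.99e-13). H3C6, an H3 gene, went from 0.241, 0.281 and 0.27 to 3.81, 2.87 and 3.55 CPM, 12.6-fold (3.65 ± 0.33, adjusted p = 7.57e-10), and H4C15 rose by 3.61 ± 0.22. Every treated library was far above every untreated one. H2BC26 rose by 2.54 ± 0.20, H4C8 by 2.49 ± 0.29, H2BC8 by 2.11 ± 0.54, H4C5 by 2.11 ± 0.55, H2BC5 by 1.91 ± 0.21 and H2BC21 by 1.84 ± 0.44. The abundant members moved less: H1-2 rose by 0.66 ± 0.20, H4C9 by 0.55 ± 0.17 and H2BC12 had a log2 FC of 0.34 ± 0.21 that did not pass (adjusted p = 0.17). H4C9 was at 4.82, 2.98 and 3.89 CPM untreated and at 7.05, 4.48 and 5.8 CPM treated, groups that overlap, and its call was lost without treated replicate 1 (0.36, adjusted p = 0.0984) and without untreated replicate 2 (0.39, adjusted p = 0.0719). The H1-2 call was lost without treated replicate 3 (0.43, adjusted p = 0.0829). H2AC25 fell by 0.55 ± 0.18 on the log2 scale, from 2.6, 2.81 and 2.28 to 1.59, 1.72 and 1.93 CPM.

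In this comparison RN7SK moved with the treatment, at 23 to 26.6 CPM in the 3 treated libraries and at 0.606 to 1.15 CPM in the 3 untreated ones, so the effect of the drug and a difference in how much RNA without a poly(A) tail entered the libraries cannot be told apart from these 6 libraries alone. The summed level of the 38 members not tested followed RN7SK in most libraries. It was 5.13 and 8.76 CPM in the A2780cis libraries treated for 6 h that were rich in RN7SK and 2.45 CPM in the third, 8.43 and 8.2 CPM in the rich untreated A2780 libraries at 12 h and 4.03 CPM in the other, and 5.17, 7.4 and 6.64 CPM in A2780cis treated for 12 h against 3.28, 3.68 and 3.14 CPM untreated. In A2780 treated for 12 h, it was 3.98 CPM in the rich library and 3.78 and 3.87 CPM in the others. The 10 tested members that end at the loop summed to 18.6 and 18.5 CPM in the rich 6 h libraries of A2780cis and to 17.6 CPM in the third. In untreated A2780 at 12 h they summed to 81 and 81.8 CPM in the rich libraries and to 85 CPM in the other. In A2780cis at 12 h they summed to 26.4, 23.8 and 27 CPM treated and to 16.8, 15.5 and 16.7 CPM untreated. The 16 tested members with exons past the loop summed to 14.4 and 18.1 CPM in the rich 6 h libraries of A2780cis and to 13.4 CPM in the third. In A2780cis treated for 12 h they summed to 44.1, 43.2 and 51.2 CPM. H4C14 was at 1.44 and 1.9 CPM in those 2 libraries and at 1.34 CPM in the third. In A2780 treated for 12 h, H4C14 was at 11 CPM in the library rich in RN7SK and at 9.87 and 9.52 CPM in the others. No A2780cis library treated for 12 h was low in RN7SK, and the part of this difference in the histone levels was not tested.

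**Figure D3:**
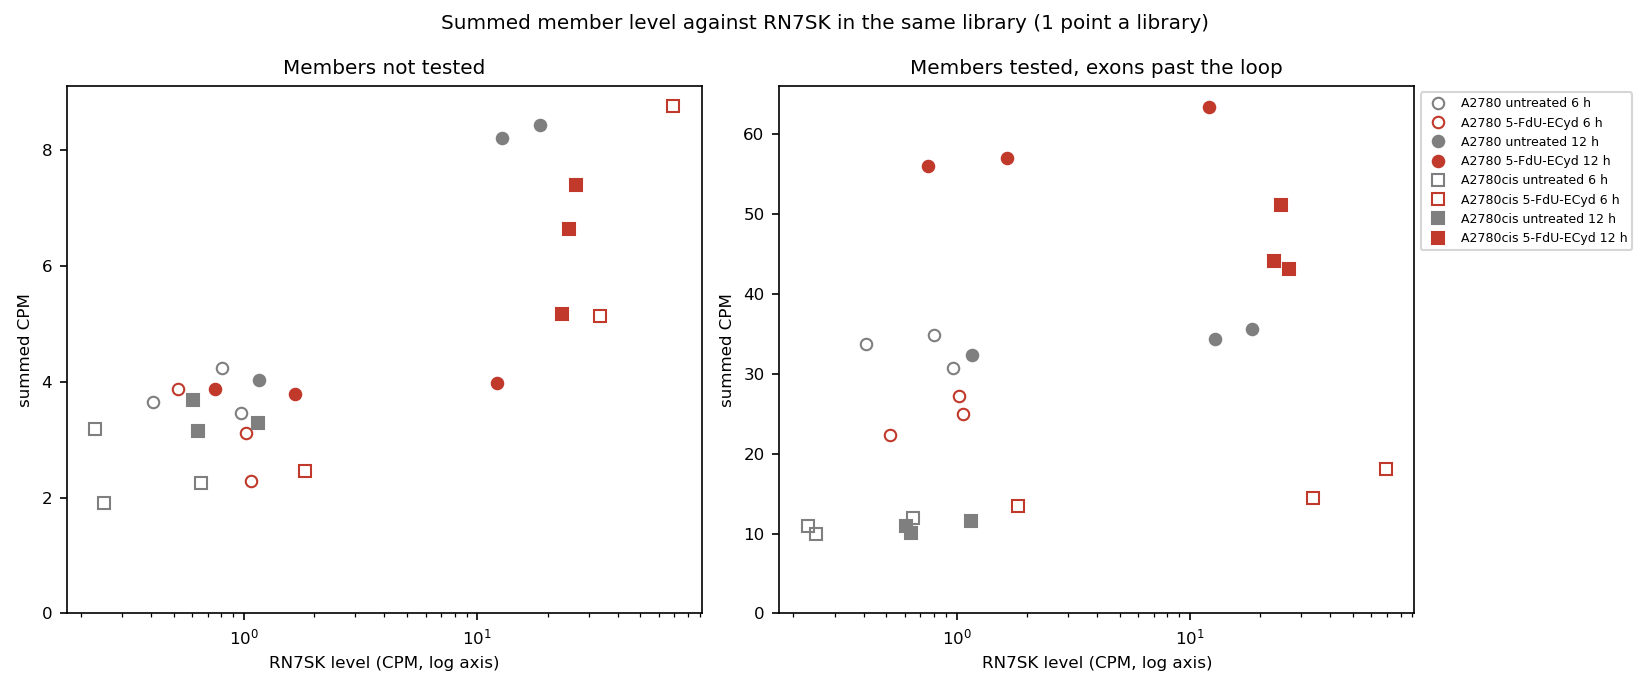
Summed CPM (linear axis from 0) of the 38 members not tested (left) and of the 16 tested members with exons past the loop (right) against the RN7SK level of the same library (CPM, log axis), with 1 point a library, circles for A2780, squares for A2780cis, open symbols for 6 h, filled for 12 h, grey for untreated and red for treated. On the left 7 of the 8 libraries with over 10 CPM of RN7SK lie above 5 CPM. On the right the A2780 libraries treated for 12 h lie at 56 to 63.4 CPM, with RN7SK from 0.753 to 12.1 CPM. Those of A2780cis lie at 43.2 to 51.2 CPM, and all are rich in RN7SK, at 23 to 26.6 CPM.

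The treatment effect differed between the lines at 12 h, and so did RN7SK. In A2780 RN7SK was at 1.16, 18.5 and 12.8 CPM untreated and at 12.1, 1.65 and 0.753 CPM treated. In A2780cis it was at 1.15, 0.606 and 0.637 CPM untreated and at 23, 26.6 and 24.7 CPM treated. Its part in the line differences below was not tested. The treatment effect was higher in A2780cis than in A2780 for 12 of 27 members, against 9.7% of all genes tested, and for all 5 class sums. The smallest p-values were those of H4C9, H4C14 and H4C15. The effect on H4C9 differed by 1.65 ± 0.22 (adjusted p = 9.7e-06), being a fall in A2780 and a rise in A2780cis, and it was the only tested member called in opposite directions. The effects on H4C14 and H4C15 each differed by 1.97 ± 0.29, and that on H3C6 by 2.77 ± 0.43. H2BC12 (1.62 ± 0.28), H2AC6 (1.32 ± 0.30), H2BC26 (1.08 ± 0.27) and H1-2 (1.00 ± 0.26) were among the 12. The H4 sum differed by 2.07 ± 0.18, the H3 sum by 1.50 ± 0.25, the H2B sum by 1.36 ± 0.19, the H1 sum by 1.03 ± 0.26 and the H2A sum by 0.84 ± 0.21.

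For H4C14 and H3C6 the larger folds of A2780cis started from lower levels and reached similar ones. Treated for 12 h, H4C14 was at 10.1 ± 0.793 CPM (SD, n = 3) in A2780 and 10.1 ± 1.7 in A2780cis, and H3C6 was at 3.83 ± 0.393 and 3.41 ± 0.486 CPM. H4C9 was at 14 ± 1.03 CPM in A2780 and 5.77 ± 1.29 in A2780cis. The treated groups of the lines were set side by side here and not tested against each other. At 6 h only the effect on H2BC26 differed between the lines, being higher in A2780cis by 1.69 ± 0.37 (1 of 27 members, against 0.692% of all genes tested). No class sum differed at 6 h (edgeR quasi-likelihood test; 4 of 5 at an unadjusted p below 0.05, and DESeq2 called H2B and H4).

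**Figure D4:**
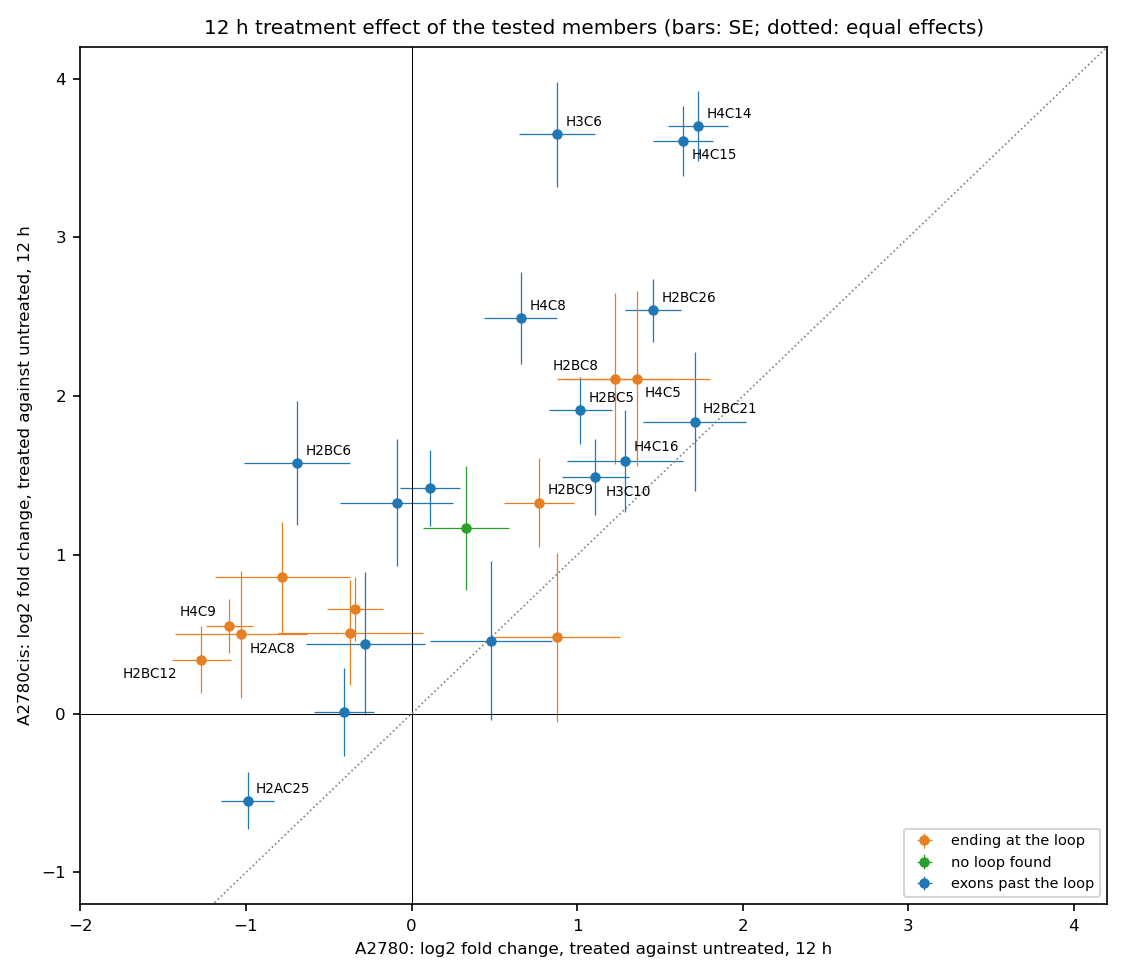
Log2 fold change of treated against untreated at 12 h in A2780 (x axis) and A2780cis (y axis) for the 27 tested members, with SE bars, colours for where the gene model ends and a dotted line where both effects are equal. Most members lie above the line, H4C14, H4C15 and H3C6 are highest, at 3.61 to 3.70 on the y axis, and H4C9 lies left of 0 at -1.10 and above 0 at 0.55.

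The treatment effect also grew between 6 h and 12 h. In A2780 the effect was higher at 12 h for 10 of 27 members, against 10.7% of all genes tested, and lower for 2, against 13%. In A2780cis it was higher for 8, against 10.3%. H4C14 gained 1.94 ± 0.29 in A2780 and 3.22 ± 0.38 in A2780cis, H3C6 gained 1.27 ± 0.37 and 3.05 ± 0.64, and H2BC26 gained 2.11 ± 0.30 and 1.50 ± 0.35. The members whose effect was lower at 12 h in A2780 were H2BC12 (-1.34 ± 0.25) and H4C9 (-0.59 ± 0.20). The H4C9 call was lost in 7 of the 12 fits that leave out 1 library (range -0.66 to -0.49), namely without treated replicates 2 or 3 and untreated replicates 1 or 3 at 12 h, and without treated replicate 3 and untreated replicates 1 or 3 at 6 h. The H2BC26 call in A2780cis was lost without untreated replicate 3 at 6 h (1.06). The 6 h and 12 h comparisons have separate controls, which also differed in RN7SK as given above.

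The members were also summed by where their gene models end. The 16 tested members with exons past the loop summed to 32.4, 35.6 and 34.4 CPM without drug at 12 h and to 63.4, 57 and 56 CPM with it. The 10 tested members that end at the loop summed to 85, 81 and 81.8 CPM without drug and to 52.5, 44.6 and 50.7 CPM with it. Neither pair of groups overlapped, the first sum being higher and the second lower with drug. H2AC11, tested but without a loop, is in neither sum. By member, 9 of the 16 rose, the copies H4C14 and H4C15 both among them, against 28.6% of all genes tested. In the same 16, 1, H2AC25, fell, against 26.1%, and the median log2 FC was 0.77. Of the 10 that end at the loop, 3 rose (H2BC8, H2BC9 and H4C5) and 3 fell (H2BC12, H4C9 and H2AC8), with a median of -0.35, so these members did not move one way, and their sum rests mainly on H4C9, H2BC12 and H1-2.

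In A2780cis at 12 h both sums were higher with drug. The 16 went from 11.6, 10.9 and 10.1 to 44.1, 43.2 and 51.2 CPM, and the 10 from 16.8, 15.5 and 16.7 to 26.4, 23.8 and 27 CPM. In the first group 12 of 16 rose and 1 fell, with a median of 1.59, and in the second 6 of 10 rose, with a median of 0.61, against 31% higher and 28.9% lower of all genes tested. At 6 h in A2780 the 16 were at 30.7, 34.9 and 33.7 CPM untreated and at 22.4, 27.2 and 25 CPM treated, lower without overlap, whereas the 10 overlapped, at 67.4, 80.9 and 85.3 against 70.5, 64.8 and 64.1 CPM. The difference between the 2 kinds of gene model was not tested.

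**Figure D5:**
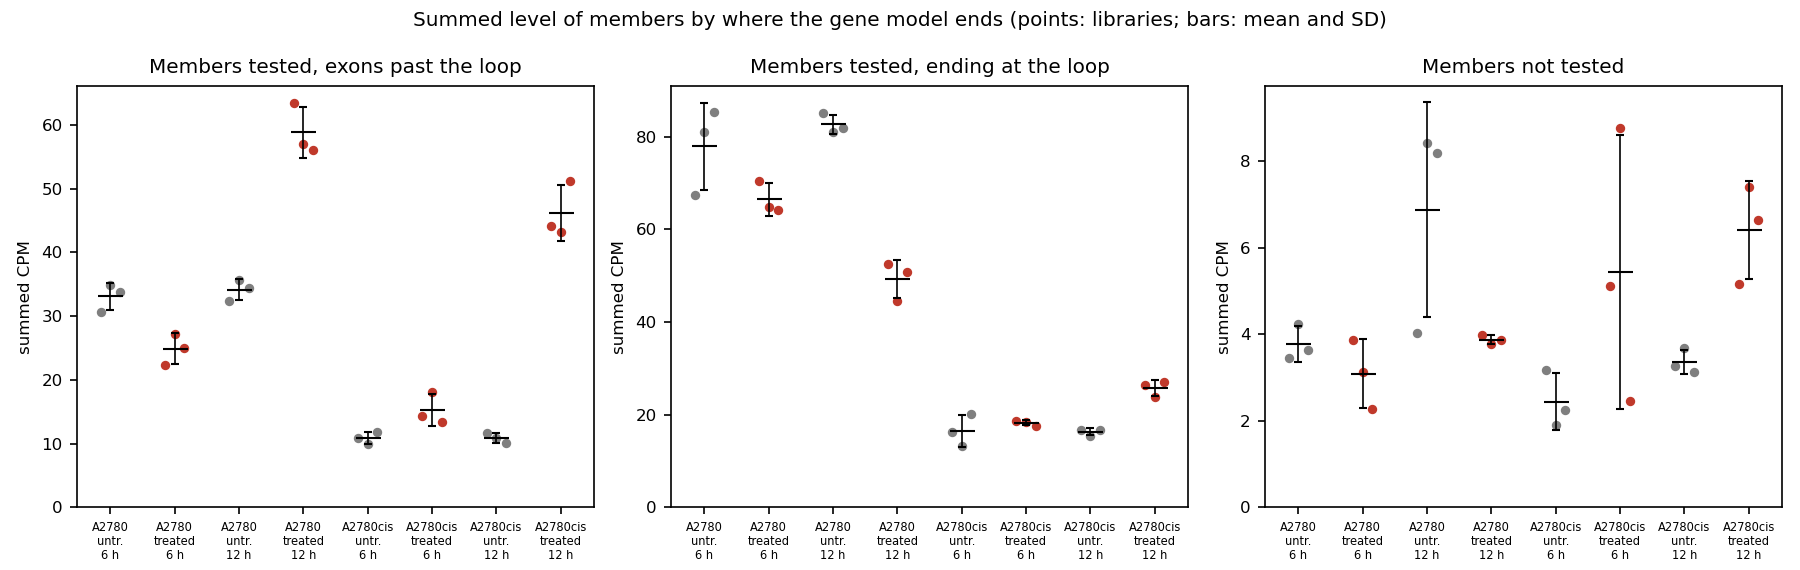
Summed CPM (linear axes from 0) of the 16 tested members with exons past the loop, the 10 tested members ending at the loop and the 38 members not tested in the 8 groups, with 1 point a library and the mean and SD as bars, grey for untreated and red for treated. In A2780 at 12 h the first sum rises to 56 to 63.4 CPM while the second falls to 44.6 to 52.5 CPM.

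Many H2A and H2B genes are arranged head to head, with their starts on opposite strands and a short promoter between them. There were 12 such pairings of an H2A with an H2B gene with starts within 500 bases, at distances of 170 to 251 bases, and both genes were tested in 5. H2AC25 and H2BC26 start 230 bases apart on chromosome 1, and in A2780 at 12 h the first fell (-0.99 ± 0.16) while the second rose (1.46 ± 0.17). In A2780cis they moved apart in the same way (-0.55 ± 0.18 and 2.54 ± 0.20). H2BC8 and H2AC8, 233 bases apart, were at 1.23 ± 0.35 and -1.03 ± 0.40 in A2780, opposite calls again, and at 2.11 ± 0.54 and 0.50 ± 0.40 in A2780cis, where only H2BC8 passed. H2BC21 rose in both lines (1.71 ± 0.31 and 1.84 ± 0.44), and its partner H2AC20, 236 bases away, passed in neither (-0.37 ± 0.44 and 0.51 ± 0.33). H2AC6 and H2BC4, 219 bases apart, were not called in A2780, and in A2780cis H2AC6 rose (1.42 ± 0.24) while H2BC4 did not pass (0.44 ± 0.45). H2BC11 and H2AC11, 248 bases apart, were not called in A2780 (-0.41 ± 0.18 and 0.33 ± 0.26), and in A2780cis H2AC11 rose (1.17 ± 0.39; lost without treated replicate 1, at 0.89, or untreated replicate 1, at 0.91) while H2BC11 did not pass (0.01 ± 0.28). The differences between partners were not tested.

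Genes that make, carry or replace these histones were read from lists. Of all genes tested at 12 h, 28.6% rose and 26.1% fell in A2780, and 31% rose and 28.9% fell in A2780cis, and the counts of each list stand against these shares. Of the 22 genes of histone mRNA processing and transcription, all tested, 2 rose and 6 fell in A2780, and 3 rose and 13 fell in A2780cis, so that in A2780 the falls were near the share of all genes and the rises below it. SLBP, which binds the stem-loop, was at 102, 95.8 and 97.7 CPM untreated and at 100, 83.6 and 78.5 CPM treated in A2780 at 12 h (log2 FC -0.17 ± 0.09, adjusted p = 0.126). In A2780cis it fell from 122, 110 and 103 to 77.7, 63.3 and 67.6 CPM (-0.69 ± 0.09, adjusted p = 7.61e-07), and the effects differed between the lines by -0.52 ± 0.13 (adjusted p = 0.0065). NPAT, the transcription coactivator of histone gene clusters, was not called in A2780 at 12 h (0.19 ± 0.14) and fell in A2780cis (-0.44 ± 0.14). NCBP1, a cap-binding protein, fell in both lines (-0.89 ± 0.09 and -0.85 ± 0.09), U7 (RNU7-1) rose in both (1.51 ± 0.27 and 1.12 ± 0.26) at no more than 3.71 CPM, and MBLAC1, a nuclease of histone pre-mRNA, rose in A2780cis (1.09 ± 0.24). U7 is a small nuclear RNA, as is RN7SK. In A2780cis at 12 h RN7SK was at 23 to 26.6 CPM treated and at 0.606 to 1.15 CPM untreated. In A2780 its mean was 4.84 CPM treated and 10.8 CPM untreated. What set the RN7SK level, and its part in the U7 values, was not tested.

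Most of the histone chaperones, which carry histones to DNA, fell. Of the 17, 2 rose and 11 fell at 12 h in A2780, against 26.1% lower of all genes, and 1 rose and 13 fell in A2780cis, against 28.9%. ASF1A fell by 1.45 ± 0.13 in A2780 and by 1.23 ± 0.13 in A2780cis on the log2 scale, and its paralogue ASF1B rose by 1.47 ± 0.11 and 1.18 ± 0.11. ATRX, a chromatin remodeller that works with the H3.3 chaperone DAXX, fell by 1.37 ± 0.14 and 1.64 ± 0.14. Both ASF1 genes are histone H3-H4 chaperones, and they moved in opposite directions in both lines.

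The replication-independent variants, most of whose genes give polyadenylated mRNAs alone, were mixed. Of the 11, 3 were higher and 4 lower in A2780 at 12 h and 4 and 4 in A2780cis, shares not far from those of all genes. CENPA, the H3 variant of centromeres, fell by 1.00 ± 0.11 and by 2.11 ± 0.11 on the log2 scale, H2AX fell by 0.55 ± 0.16 and 0.83 ± 0.17, and H2AJ rose by 0.91 ± 0.16 and 1.16 ± 0.15. H3-3B, which encodes H3.3, passed in neither line (-0.02 ± 0.10 and 0.08 ± 0.10), and H2AZ1 fell in A2780 alone (-0.29 ± 0.11), with 0.03 ± 0.11 in A2780cis and a difference between the lines that did not pass (adjusted p = 0.158).

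Among 29 genes of S phase, 12 rose and 11 fell at 12 h in A2780, against 28.6% and 26.1% of all genes tested. In A2780cis 7 rose and 13 fell, against 31% and 28.9%. CCNE2, a cyclin of the G1 to S transition, rose by 1.94 ± 0.11 in A2780 and 0.75 ± 0.11 in A2780cis, and PCNA, the sliding clamp of DNA polymerase, by 1.34 ± 0.10 and 0.85 ± 0.10. CCNA2, a cyclin of S phase and G2, fell by 0.68 ± 0.10 and 1.32 ± 0.10 on the log2 scale, and the transcription factor E2F1 rose by 0.50 ± 0.11 and 0.91 ± 0.11. Of the 29, 3 had a higher and 8 a lower effect in A2780cis than in A2780, beside 1964 and 2826 of all 20240 genes tested. The lower ones included CCNE2 (-1.19 ± 0.16), PCNA (-0.49 ± 0.14) and CCNA2 (-0.64 ± 0.14), and the higher ones E2F1 (0.41 ± 0.15). The part of the cell cycle in the histone results was not tested.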

How the data were processed

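The authors deposited 1 table of 63299 genes and 24 libraries. Per the labels and the methods, the reads were trimmed with Trimmomatic, aligned with STAR 2.5.2b to GRCh38.p7 with a Gencode annotation, and counted with featureCounts. Reads mapping to several places or genes were counted in fractions, so the deposited values are estimated counts with 1 decimal. Near-identical histone copies therefore share reads. The strand setting of the counting is not given in the sources used here, so overlapping genes of opposite strands cannot be separated. The labels name single reads of a stranded total RNA kit, while the methods name paired reads and a paired counting setting, and this was not resolved.

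Counts were rounded and scaled by TMM in edgeR 4.0.16 (R 4.3.3). Genes passing filterByExpr (minimum count 10, total 15) numbered 20240. The quasi-likelihood test was fitted over all 24 libraries with 1 coefficient a group (16 residual df) and Benjamini-Hochberg adjustment over all genes tested, with a threshold of 0.05. Log2 FCs are given ± SE, where the SE was derived as the absolute log2 FC over the square root of the F statistic. This SE is approximate and can differ from what the p-value implies. For class sums, the members of a class were added and replaced by the sum in the same fit. DESeq2 1.42.0 was an alternative, as were other scalings, no filter, unrounded counts, a replicate block, subsets of libraries and members with whole counts. The test was tried on simulated data for the A2780 12 h comparison, where it called 184 of 200 changed genes and 11 of 18942 unchanged ones. The changed genes were all above 1 CPM on average, and in the real comparison 5796 genes rose and 5291 fell. The trial therefore does not show how the test does with so many changes or with low counts. No 2 replicates were the same library: at least 26844 genes differed between any 2 of a group.

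Stem-loops and gene models were read from GRCh38 with GENCODE 44, promoters from RefSeq. CPM are TMM-scaled. At these depths a level under 1 CPM rests on few reads. The members and gene lists were chosen with earlier results of these data known. Members were named by these rules: the 3 highest per kilobase in each class, the 3 largest called increases and decreases of each treatment comparison whose mean log2 CPM was not below 0, opposite calls at 12 h, the 3 smallest interaction p-values, and genes below the filter with their highest count. Of each list, SLBP, NPAT, H2AX, H3-3B and H2AZ1 and the 2 largest called changes at 12 h in each line were named, and 1 gene that this rule names is not reported here. Other members are given with their values to complete a count, or as pairs chosen after their values were seen. Numbers of samples limit every comparison to 3 libraries a group.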

Additional observations from a re-analysis of the deposited data

Results flagged for a closer look

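Differences between the lines or the times in the treatment effect, each by a test of the difference itself, singled out the results below. Values are differences of log2 FCs. At 12 h the effect was higher in A2780cis than in A2780 for the sums of H1 (1.03), H2A (0.84), H2B (1.36), H3 (1.50) and H4 (2.07). It was higher for H3C6 (2.77), H2BC6 (2.27), H4C14 and H4C15 (1.97 each), H4C8 (1.83), H4C9 (1.65), H4C12 (1.64), H2BC12 (1.62), H2AC6 (1.32), H2BC26 (1.08), H1-2 (1.00) and H2BC5 (0.89). At 6 h it was higher for H2BC26 alone (1.69). The line difference at 12 h goes with the RN7SK level, and its part was not tested. RN7SK was high in all 3 treated A2780cis libraries. In A2780 its mean was higher untreated (10.8 CPM) than treated (4.84 CPM).

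Between 6 h and 12 h the effect in A2780 rose for the H3 sum (0.83) and for H2BC26 (2.11), H4C14 (1.94), H2BC8 (1.85), H4C15 (1.80), H2BC21 (1.62), H3C6 (1.27), H2BC5 (1.19), H3C10 (1.11), H2BC9 (0.89) and H2AC6 (0.88), and it fell for H2BC12 (-1.34) and H4C9 (-0.59). In A2780cis it rose for the sums of H4 (1.80), H3 (1.46) and H2B (0.58) and for H4C14 (3.22), H4C15 (3.17), H3C6 (3.05), H2BC5 (2.20), H4C8 (1.51), H2BC26 (1.50), H2AC6 (1.03) and H4C9 (0.95). Leaving out 1 library at a time, the calls in A2780 were lost for H2BC9 in 11 of 12 fits (all but that without untreated replicate 1 at 12 h; range 0.69 to 1.19), for H4C9 in 7 (-0.66 to -0.49), and in 3 each for H2AC6 (without treated replicate 1 at 6 h, 0.69, untreated replicate 3 at 12 h, 0.80, or untreated replicate 2 at 6 h, 0.77), H2BC21 (without treated replicates 1 or 2 at 6 h, 1.47 and 1.35, or untreated replicate 1 at 12 h, 1.28) and H2BC8 (without treated replicate 1 at 12 h, 1.72, or treated replicate 1 or untreated replicate 2 at 6 h, 1.58 each). In A2780cis H2AC6 lost its call in 8 fits (0.85 to 1.26), namely without treated replicates 1 or 3 or untreated replicates 2 or 3 at 12 h and treated replicates 2 or 3 or untreated replicates 1 or 3 at 6 h, and H2BC26 in 1, without untreated replicate 3 at 6 h (1.06). H2BC5 and H4C8 were not among the members refitted in this way for these changes. Groups of 3 are too small for a search for single outlying libraries.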

How the results depend on the processing

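Over all alternatives, 1239 of 1309 values of named members and 715 of 770 of class sums kept their direction and their side of the threshold, and 153 of 194 counts of called members stayed within 1.5 times. No sum that changed sign had passed the threshold as reported. Library size alone moved the median of all genes by over 0.1 in A2780 at 12 h (0.24 in place of 0.02), A2780cis at 12 h (0.15 and 0.04), the line difference at 12 h (-0.16 and -0.04), the change of the effect with time in A2780 (0.13 and -0.02) and time in untreated A2780cis (0.06 and -0.09). It moved the share of higher among all called genes from 47% to 61.4% in A2780cis at 6 h, from 41% to 27% for the line difference at 12 h, from 45.1% to 69.7% for the change of the effect with time in A2780, and from 61.7% to 71.9% and 45.2% to 74.6% for time in untreated A2780 and A2780cis. The rest follows, with the cause not tested unless fewer members or libraries give it. In A2780 at 12 h the H1 sum passed with the compared groups alone (-0.38), without the filter (-0.42) and with a replicate block (-0.39). The H2A sum passed with the compared groups alone (-0.30) and over members with whole counts (-0.43), and the H2B sum with the groups alone (-0.22) and, turned, over whole counts (0.89). The H4 sum turned with the groups alone (0.01) and with library size alone (0.21), and passed over whole counts (-0.75). In A2780cis at 6 h the H3 sum was lost with the groups alone (0.69), DESeq2 (0.64), no filter (0.68) and without the libraries rich in RN7SK (0.41), which also gave 0.49 for H2B, -0.10 for H2A and -0.12 for H4. H2B was lost over whole counts (0.87), and H4 passed with library size alone (0.35). Of the line differences at 6 h, H2B passed with DESeq2 and with no filter (0.69 each). H4 passed with those and with DESeq2's size factors (0.69 each), library size alone (0.70) and unrounded counts (0.71). At 12 h H2B was lost over whole counts (0.57). In untreated A2780, 12 h against 6 h, H2B passed with library size alone (0.37).

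Over the 12 tested members with whole counts in at least 90% of the libraries, fewer were called by construction: 9 in A2780 and 10 in A2780cis at 12 h, 0 in A2780cis at 6 h, 5 and 0 for the line difference at 12 h and 6 h, 5 and 4 for the change of the effect with time in A2780 and A2780cis, 0 for time in untreated A2780, and 9 and 8 for the untreated lines at 6 h and 12 h. Leaving out the libraries rich in RN7SK was an alternative chosen after seeing the data. It left a single untreated library in A2780 at 12 h and a single treated library in A2780cis at 6 h. Its counts of called members are therefore not given here. The count in A2780cis at 6 h was 1 with unrounded counts and with DESeq2, 5 with library size alone and 6 without the filter. The line difference at 6 h had 2 calls with DESeq2, its size factors and library size alone. Time in untreated A2780 had 0 with the groups alone and DESeq2, 3 with library size alone and no filter, and 2 with the replicate block. Same-numbered replicates had deviations with correlations from -0.25 to 0.31, which do not show whether they were handled together. With the replicate block, 88 of 88 values of named members and 49 of 50 of class sums kept their direction and their side of the threshold. Of the counts of called members, 11 of 12 stayed within 1.5 times.

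Leaving out 1 library at a time gave these ranges. Called members numbered 2 to 5 and 14 to 19 in A2780 at 6 h and 12 h, 1 to 4 and 18 to 21 in A2780cis, 1 to 2 for the line difference at 6 h, 5 to 9 for the change of the effect with time in A2780cis, and 0 to 1 and 0 to 4 for time in untreated A2780 and A2780cis. In A2780 the sums ranged at 6 h from -0.24 to 0.05 (H1), -0.29 to 0.00 (H2B) and -0.49 to -0.37 (H4), and at 12 h from -0.47 to -0.31 (H1) and -0.08 to 0.02 (H4). In A2780cis they ranged at 6 h from -0.10 to 0.35 (H2A), 0.43 to 0.74 (H2B), 0.43 to 0.80 (H3) and 0.15 to 0.43 (H4), and at 12 h from 0.41 to 0.80 (H1). The line difference at 6 h ranged from 0.47 to 0.95 (H2A), 0.54 to 0.89 (H2B) and 0.58 to 0.85 (H4). Time in untreated cells ranged from 0.13 to 0.42 (H2B in A2780) and, in A2780cis, from -0.16 to 0.37 (H1), -0.03 to 0.46 (H2A) and -0.44 to -0.20 (H4). Low counts limit the single genes: below 1 CPM only large changes could pass.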
